A study of Mus musculus with 29 samples.

Results

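Livers of mice fed a restricted diet whose fat was fish oil were compared with livers of mice fed the same restricted ration with soybean oil, across every gene of the deposited liver read table. The comparison uses the 4 liver libraries with the diet label fish and the 4 with the diet label soy, which are 8 of the 29 libraries and 8 of the 15 liver libraries. The fish and soy mice were male C57BL/6 mice, bought at 14 weeks, assigned to diets at 4 months and given 60% of their free intake, or 8.6 kcal per day. Lard livers (n = 4) came from mice at the same 60% intake, and control livers (n = 3) from mice at 95% of free intake, or 13.6 kcal per day, to limit weight gain. Each liver library is a separate mouse, named here by its number, and hindlimb muscle libraries of 3 of these fish mice and 3 of these soy mice are also in the series. Wherever 4 values are given, they follow the order of mice 1067, 1123, 1124 and 1125 for fish livers and 1065, 1073, 1141 and 1159 for soy livers. One control liver and 1 fish muscle had been dropped by the submitters after clustering, and are not analysed here. The series title asks whether omega-3 fatty acids partly revert the expression profile of long-term calorie restriction, and the fish against soy contrast changes the fat while energy intake stays equal.

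Fish oil is rich in long-chain omega-3 polyunsaturated fatty acids, while soybean oil is mostly the omega-6 fatty acid linoleic acid with some plant omega-3. In liver, long-chain polyunsaturated fatty acids are known to lower the activity of SREBP-1c and ChREBP, which drive genes of fatty acid synthesis, and to activate PPARα, which drives genes of fatty acid oxidation. The liver also makes the apolipoproteins that carry fat in blood and the enzymes that turn sugars and amino acids into glucose and urea.

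The 8 libraries held 13395489 to 20956142 exon reads. All 12 hepatocyte markers were detected, led by Alb, which encodes serum albumin, at 74290 to 104900 CPM (exon reads scaled to a common library size, as defined at the end) in fish livers and 106500 to 136600 CPM in soy livers. The summed hepatocyte markers were 123672 to 158495 CPM in fish livers and 162748 to 202919 CPM in soy livers, which do not overlap (exact two-sided permutation p = 0.0286, the smallest that 4 against 4 allows, adjusted p = 0.257 over 18 library measures). Of these markers, 11 had a negative and 1 a positive fold change, and Cyp2e1 had 10900 to 14180 CPM in fish livers and 9197 to 11660 CPM in soy livers. The summed adipocyte markers gave the same p and adjusted p, at 1116 to 1751 CPM in fish livers and 407 to 1042 CPM in soy livers. Car3 alone held 1090 to 1741 CPM and 396.6 to 1034 CPM of these. Skeletal muscle markers summed to 3052 CPM in fish liver 1123 and to 203 to 458 CPM in the other 7 livers. In bulk RNA, fewer cells of a type and less RNA per cell cannot be told apart.

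Soy livers 1073 and 1159 stood apart from all the other 13 livers. On the first principal component of all 15 livers, which held 30.3% of the variance, they lay at 69.0 and 54.5, and the other livers at -18.2 to -2.01. Only 5.47% and 5.41% of their reads within genes fell outside exons, against 8.19% to 8.92% in fish livers and 8.14% and 8.43% in soy livers 1065 and 1141. Ribosomal protein genes averaged 8.62 and 8.57 log2 CPM in soy livers 1073 and 1159, against 7.32 to 7.57 in fish livers. Results that rest on them are given with and without them, and the part of these differences in each result was not tested.

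Of 12788 genes tested, 12 passed an adjusted p of 0.05 (0.0938% of genes tested; edgeR quasi-likelihood test, Benjamini-Hochberg adjustment), with 9 higher (0.0704%) and 3 lower (0.0235%) in fish livers. At an unadjusted p under 0.05 there were 1191 genes higher (9.31%) and 1768 genes lower (13.8%) in fish livers. The number of calls depended on single libraries. Dropping a single soy liver gave 2092 calls (mouse 1065), 1329 (mouse 1141), 6 (mouse 1159) and 0 (mouse 1073). Leaving out fish liver 1067, 1124 or 1125 also gave 0 calls, leaving out fish liver 1123 gave 1, and leaving out lard liver 1100, control liver 1120 or control liver 1121 gave 5, 7 and 5. Without soy livers 1073 and 1159 together, 0 of 12900 genes passed in edgeR (0.0%), also 0 when only the fish and soy livers were fitted, and 1183 genes (9.17%) had an unadjusted p under 0.05. DESeq2's Wald test on the main libraries called 813 genes, 182 higher and 631 lower, among them 8 of the 12. With library size alone as the scaling, the median of all genes moved to 0.20 on the log2 scale, against 0.02 with the main scaling, and 30 genes passed, 28 higher and 2 lower.

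The levels of the 12 genes in the 4 diets are plotted for each liver, and in all 12 the fish and soy livers did not overlap. All 4 fish livers were above all 4 soy livers in 474 of the genes tested (3.71%) and below them in 467 (3.65%). Against soy livers 1065 and 1141 alone, they were above in 1247 (9.75%) and below in 1253 (9.8%).

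**Figure D1:**
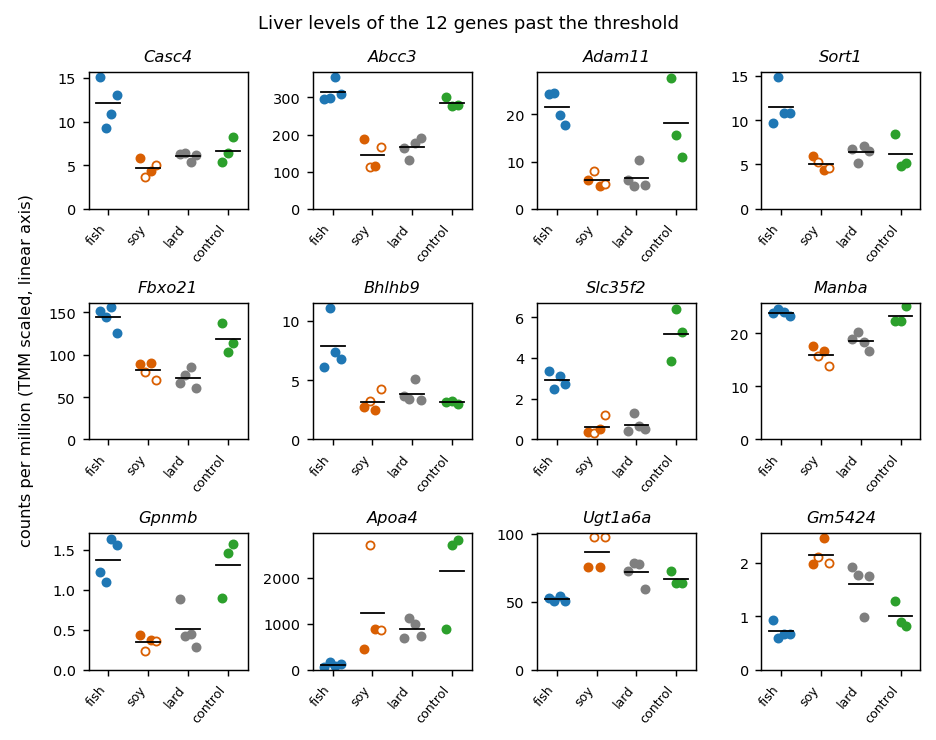
Each panel plots the level of 1 gene in CPM, on a linear axis from 0, in fish, soy, lard and control livers. Points are single livers, lines are group means, and open points are soy livers 1073 and 1159. In all 12 panels the 4 fish livers lie to 1 side of the 4 soy livers.

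Among the genes that rose, the organic anion exporter Abcc3, which moves bile acid and drug conjugates out of hepatocytes into blood, was the most abundant. Abcc3 (ENSMUSG00000020865, chr11:94343295-94392997, minus strand, GRCm38) had 295, 298, 355 and 309 CPM in fish livers and 188, 113, 116 and 166 CPM in soy livers. Every fish liver was above every soy and lard liver, and the fish livers overlapped the control livers, at 276 to 301 CPM, with lard livers at 132 to 189.8 CPM. The log2 fold change was 1.11 ± 0.16 (SE), with an edgeR adjusted p of 0.0306, and 1.05 without soy livers 1073 and 1159.

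Sort1, the sorting receptor sortilin, is known for its role in the traffic of apolipoprotein B particles. Sort1 (ENSMUSG00000068747, chr3:108284082-108361511, plus strand) had 9.67, 14.9, 10.8 and 10.7 CPM in fish livers and 5.95, 5.26, 4.32 and 4.56 CPM in soy livers, with fish liver 1123 highest. The lowest fish liver was above every soy, lard (5.18 to 7.04 CPM) and control liver (4.80 to 8.39 CPM). Its log2 fold change was 1.19 ± 0.19 (edgeR adjusted p = 0.0307). Muscle also expresses Sort1, at 97.3 to 150 CPM in fish muscles and 104 to 111 CPM in soy muscles. Skeletal muscle markers were high in fish liver 1123, and the part of muscle cells in the Sort1 result was not tested.

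Casc4 encodes a Golgi membrane protein and had the smallest p of the table. Casc4 (ENSMUSG00000060227, chr2:121866970-121936220, plus strand) had 15.1, 9.23, 10.9 and 13.1 CPM in fish livers and 5.81, 3.63, 4.32 and 4.99 CPM in soy livers, a log2 fold change of 1.36 ± 0.19 (edgeR adjusted p = 0.0306). All 7 lard and control livers, at 5.42 to 6.39 CPM and 5.32 to 8.21 CPM, were below the lowest fish liver.

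Adam11 encodes a cell surface protein of the ADAM family that lacks protease activity. It had 24.3, 24.4, 19.9 and 17.7 CPM in fish livers and 6.15, 7.98, 4.85 and 5.35 CPM in soy livers, with a log2 fold change of 1.82 ± 0.28 (edgeR adjusted p = 0.0306). The 3 control livers spread from 11.0 to 27.7 CPM, so that they overlapped the fish livers but not the soy livers.

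Fbxo21, an F-box subunit of a ubiquitin ligase, had 152, 144, 157 and 126 CPM in fish livers and 89.6, 79.1, 89.7 and 70.3 CPM in soy livers. The 2 groups were each narrow, and the log2 fold change of 0.82 ± 0.13 (edgeR adjusted p = 0.0307) was 0.69 without soy livers 1073 and 1159. Manba, the lysosomal beta-mannosidase, had the narrowest fish group, with 23.8, 24.6, 24.0 and 23.3 CPM in fish livers and 17.6, 15.7, 16.7 and 13.9 CPM in soy livers. Its change was the smallest of the 12, 0.58 ± 0.10 on the log2 scale (edgeR adjusted p = 0.0423).

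The other 3 genes that rose were at low levels. Slc35f2, a member of the SLC35 family of membrane transporters, had 3.38, 2.46, 3.09 and 2.70 CPM in fish livers and 0.339, 0.302, 0.522 and 1.21 CPM in soy livers. Its log2 fold change of 2.33 ± 0.40 (edgeR adjusted p = 0.0367) was the largest rise among the 12, and control livers were higher still, at 3.84 to 6.40 CPM. Gpnmb, a transmembrane glycoprotein of melanosomes and macrophages, had 1.22, 1.09, 1.64 and 1.56 CPM in fish livers and 0.436, 0.242, 0.373 and 0.357 CPM in soy livers (log2 fold change 1.94 ± 0.34, edgeR adjusted p = 0.0476). The summed Kupffer cell markers, the resident macrophages of liver, were 494 to 1010 CPM in fish livers and 345 to 888 CPM in soy livers, which overlap. Bhlhb9, on the X chromosome, had 6.11, 11.1, 7.39 and 6.80 CPM in fish livers and 2.76, 3.27, 2.46 and 4.21 CPM in soy livers (log2 fold change 1.31 ± 0.21, edgeR adjusted p = 0.0307).

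Apoa4, an apolipoprotein of triglyceride-rich particles and high-density lipoprotein, had the largest change of the 12. Apoa4 (ENSMUSG00000032080, chr9:46240696-46243459, plus strand) fell to 69.5, 166, 82.0 and 134 CPM in fish livers, against 449.9, 2702, 879.6 and 862 CPM in soy livers. Soy liver 1073 was far above the other soy livers, and the highest fish liver was still below the lowest soy liver. Lard livers had 682 to 1126 CPM and control livers 890.5 to 2819 CPM, so that fish livers were below all 11 other livers. The log2 fold change was -3.44 ± 0.52 (edgeR adjusted p = 0.0306), and -2.56 without soy livers 1073 and 1159. Of its exon reads 39.7% were unique to the gene, 34.9% of its exon bases overlap an annotated transcript on the other strand, and on unique reads alone the log2 fold change was -3.06.

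Ugt1a6a, a glucuronosyltransferase of phenols, had 52.8, 50.7, 54.4 and 50.5 CPM in fish livers and 75.2, 97.9, 75.7 and 97.4 CPM in soy livers. Its log2 fold change was -0.73 ± 0.12 (edgeR adjusted p = 0.0307). It shares its last exons with the other genes of the Ugt1a cluster and only 5.56% of its reads were unique, so the value may belong in part to those genes, and on unique reads the adjusted p was 0.107.

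Gm5424 is annotated as a processed pseudogene, and its transcript is identical to that of the urea cycle gene Ass1 at 1234 of 1240 bases (99.5%). It had 0.932, 0.601, 0.666 and 0.674 CPM in fish livers and 1.98, 2.12, 2.46 and 2.00 CPM in soy livers (log2 fold change -1.56 ± 0.25, edgeR adjusted p = 0.0306). It rested on 11 to 16 exon reads in each fish liver and 28 to 41 in each soy liver, with 0 junction reads. Ass1 had 24866 to 34946 exon reads in fish livers and 38047 to 56771 in soy livers, so the Gm5424 reads cannot be told from misplaced Ass1 reads. Reads counted as unique to Gm5424 were 6 in each fish liver and 11 to 20 in each soy liver. On unique reads its log2 fold change was -1.49, with an edgeR adjusted p of 0.0693, so it did not pass.

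On the log2 scale, the mean of the control livers lay nearer the fish mean than the soy mean in 8 of the 12 genes, and nearer the soy mean in Apoa4, Bhlhb9, Casc4 and Sort1. The mean of the lard livers lay nearer the soy mean in all 12. These are descriptions of genes chosen for their fish against soy difference.

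In hindlimb muscle, where 3 fish and 3 soy libraries could be compared, none of 13104 genes passed in edgeR (0.0%), while 288 (2.2%) had an unadjusted p under 0.05. Of the 10 genes tested there, Gpnmb had the smallest p, with 6.09, 4.82 and 4.57 CPM in fish muscles and 5.38, 16.0 and 8.29 CPM in soy muscles. Its log2 fold change there was -0.94, opposite to liver, with an edgeR adjusted p of 0.9997. The difference between tissues was not tested. Casc4 had 19.1, 14.5 and 9.96 CPM in fish muscles and 15.5, 13.2 and 14.8 CPM in soy muscles, which overlap. Abcc3 was between 0.83 and 1.51 CPM in all 6 muscles, far below its liver level.

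Promoter sequences were read to show what lies before genes at both ends of the change. RefSeq windows of 250 bases before to 50 bases after the start (GRCm38.p6) were found for 13 of 18 genes looked for, of which 8 are among the 12. The motifs were CACGTG (E-box), CCAAT (the box bound by NF-Y), GGGCGG (the GC box bound by SP1), TCACNCCAC (a sterol response element), and AGGTCA repeated with 1 base or with 4 bases between the copies (sites of nuclear receptors), each on both strands and able to overlap one another. Of 32851 promoters of this length, 7.15% held CACGTG, 37.4% CCAAT, 35.7% GGGCGG, 1.24% TCACNCCAC, 0.0396% the repeat with 1 base between and 0.0152% that with 4. Among the 8 promoters of the genes past the threshold, 6 held GGGCGG, 1 held CCAAT and 0 held any other of these motifs. Apoa4 is shown as the gene with the largest change (chr9:46240594-46240893, plus strand), and held none of these motifs. Casc4 is shown as the gene with the smallest p (chr2:121866720-121867019, plus strand), with its 2 GGGCGG matches, here on the opposite strand, in capitals. A match is only a description of the letters.
Apoa4: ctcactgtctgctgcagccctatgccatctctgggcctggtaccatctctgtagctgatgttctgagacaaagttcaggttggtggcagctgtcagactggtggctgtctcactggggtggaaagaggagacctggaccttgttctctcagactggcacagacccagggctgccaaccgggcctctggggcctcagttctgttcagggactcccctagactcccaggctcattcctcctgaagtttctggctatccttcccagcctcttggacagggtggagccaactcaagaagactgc
Casc4: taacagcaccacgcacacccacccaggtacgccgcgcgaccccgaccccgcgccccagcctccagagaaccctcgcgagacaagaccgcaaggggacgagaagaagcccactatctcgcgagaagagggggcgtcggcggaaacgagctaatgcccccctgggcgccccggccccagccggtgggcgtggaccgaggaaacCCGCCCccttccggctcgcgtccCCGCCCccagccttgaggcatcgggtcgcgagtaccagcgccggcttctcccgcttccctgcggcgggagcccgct

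Genes of fatty acid and triglyceride synthesis were mostly at lower levels in fish livers, but none of the 29 tested passed the threshold. The median log2 fold change of the list was -0.52, against 0.02 over all genes tested, and -0.30 without soy livers 1073 and 1159, against 0.01. Without soy liver 1073 alone it was -0.26. Of the list, 24 genes had a negative and 5 a positive fold change. Groups did not overlap in 4 genes, Pklr, Slc25a1 and Dgat2 below and Scd2 above, against the 3.65% and 3.71% of all genes given above.

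Fasn, the fatty acid synthase, had 220.3, 313, 301 and 375 CPM in fish livers and 339, 882, 994 and 317 CPM in soy livers. Soy livers 1073 and 1141 were high and soy livers 1065 and 1159 lay within the range of the fish livers, so the groups overlapped (log2 fold change -1.07 ± 0.41). Acly, ATP citrate lyase, had 134, 124, 143 and 192 CPM in fish livers and 182, 452, 299 and 184 CPM in soy livers (log2 fold change -0.91 ± 0.29), again with 2 of the 4 soy livers inside the fish range. Me1, the malic enzyme that supplies NADPH, had 165, 249, 231 and 206 CPM in fish livers and 234, 464, 492 and 361 CPM in soy livers, where only soy liver 1065 fell within the fish range.

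Pklr, the liver pyruvate kinase, is a classic target of ChREBP. It had 185, 254, 215 and 215 CPM in fish livers and 255, 583, 579.8 and 345 CPM in soy livers (log2 fold change -1.02 ± 0.25, edgeR adjusted p = 0.106), and soy liver 1065 was only just above the highest fish liver. Its exons overlap those of Hcn3 on the other strand, and 80.5% of its reads were unique. Pnpla3, the lipid droplet protein adiponutrin, had 1.28, 1.75, 1.33 and 2.08 CPM in fish livers and 1.79, 10.6, 9.77 and 3.21 CPM in soy livers, with the largest fold change of the list (-1.96 ± 0.61, and -1.79 without soy livers 1073 and 1159). Thrsp, a regulator of fat synthesis also known as Spot 14, had 158, 143, 147 and 245 CPM in fish livers and 214, 1109, 301 and 612 CPM in soy livers. Its log2 fold change of -1.69 became -0.58 without soy livers 1073 and 1159, which were its highest.

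Srebf1, which encodes SREBP-1, had 250, 311, 339 and 183 CPM in fish livers and 209, 444, 299.5 and 147 CPM in soy livers, and its log2 fold change of -0.02 ± 0.39 turned positive under several of the alternatives given at the end. Mlxipl, which encodes ChREBP, had 297, 215, 241 and 273 CPM in fish livers and 223, 165, 312 and 203 CPM in soy livers (log2 fold change 0.18 ± 0.16, and -0.06 without soy livers 1073 and 1159). Scd1, the main liver stearoyl-CoA desaturase, had 2579, 7928, 7125 and 6448 CPM in fish livers and 10572, 3544, 13101 and 10092 CPM in soy livers, and soy liver 1073 lay among the fish livers. Its relative Scd2 had the opposite sign, with 9.67, 11.1, 15.6 and 8.87 CPM in fish livers and 8.37, 5.75, 6.04 and 6.42 CPM in soy livers (log2 fold change 0.76 ± 0.19, edgeR adjusted p = 0.106).

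The lard livers had 496 to 1791 CPM of Fasn and the control livers 253 to 418 CPM. For Elovl6, which lengthens palmitate, fish livers had 80.1 to 196 CPM, soy livers 152 to 237 CPM, lard livers 312 to 494 CPM and control livers 143 to 204 CPM. Both genes were lower in every fish liver than in every lard liver, and overlapped between fish and control livers.

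Promoters are shown for 3 of these genes in which soy livers 1073 and 1141 had the highest levels of the 8 livers. Me1 had the same arrangement and is not shown. Its window at chr9:86695865-86696164 held 4 matches to GGGCGG and 0 to CCAAT, and that at chr9:86687228-86687527 held 1 to CCAAT. The first listed start of Pklr held none of the motifs. Of the 13 genes with a promoter, 5 held CCAAT, beside 37.4% of all promoters. Fasn (chr11:120824498-120824797, minus strand) held 3 matches to CCAAT, Acly (chr11:100527951-100528250, minus strand) 1 to CCAAT and 4 to GGGCGG, and Pklr (chr3:89136373-89136672, plus strand, the second of 2 listed starts) 1 to CCAAT, on either strand and in capitals.
Fasn: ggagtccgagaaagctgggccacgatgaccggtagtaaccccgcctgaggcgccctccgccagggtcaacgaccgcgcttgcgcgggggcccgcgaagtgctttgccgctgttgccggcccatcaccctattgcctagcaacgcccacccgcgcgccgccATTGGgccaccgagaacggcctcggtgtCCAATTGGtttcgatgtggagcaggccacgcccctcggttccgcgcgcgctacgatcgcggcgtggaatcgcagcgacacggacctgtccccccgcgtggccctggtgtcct
Acly: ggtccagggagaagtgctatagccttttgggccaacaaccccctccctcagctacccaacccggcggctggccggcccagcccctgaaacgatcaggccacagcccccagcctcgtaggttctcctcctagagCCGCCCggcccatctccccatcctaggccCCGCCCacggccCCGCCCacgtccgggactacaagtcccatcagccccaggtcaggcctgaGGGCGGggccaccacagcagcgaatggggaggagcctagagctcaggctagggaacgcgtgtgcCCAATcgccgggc
Pklr: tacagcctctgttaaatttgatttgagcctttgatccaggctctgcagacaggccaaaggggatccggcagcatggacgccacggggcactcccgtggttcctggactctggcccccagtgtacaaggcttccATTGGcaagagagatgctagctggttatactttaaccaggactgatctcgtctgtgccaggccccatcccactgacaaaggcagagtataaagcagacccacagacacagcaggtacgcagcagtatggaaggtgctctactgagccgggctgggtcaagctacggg

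The enzymes that make long polyunsaturated fatty acids, a list of 14 genes, held 0 genes past the threshold and 0 whose groups did not overlap. Fads2, the delta-6 desaturase, had 298, 313, 327 and 714 CPM in fish livers and 625, 523, 506 and 476 CPM in soy livers. Fish livers 1067, 1123 and 1124 were below every soy liver, while fish liver 1125 was the highest of the 8. Fads1, the delta-5 desaturase, showed the same arrangement in its lower 3 fish livers, with 335, 366, 406 and 606 CPM in fish livers and 626, 642, 583 and 527 CPM in soy livers. Elovl2, which lengthens these fatty acids, had 404 to 579 CPM in fish livers and 498 to 805 CPM in soy livers. Elovl3, an elongase that is higher in male than in female mouse liver, had 28.9, 11.0, 18.8 and 25.5 CPM in fish livers and 8.23, 6.35, 2.24 and 11.5 CPM in soy livers, and control livers had 40.8 to 84.7 CPM. The median of the list was -0.13, -0.20 without soy livers 1073 and 1159, -0.077 without fish liver 1067, and 0.06 with library size alone as the scaling.

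**Figure D2:**
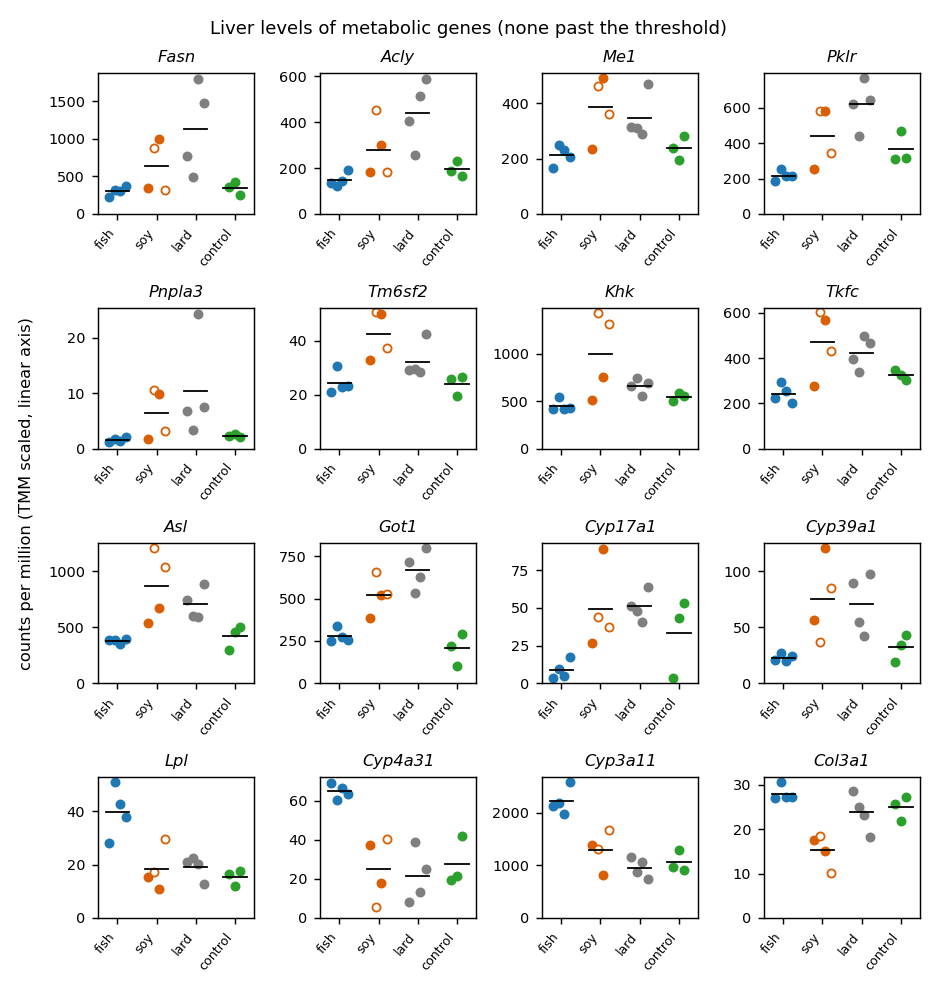
Each panel plots 1 metabolic gene in CPM, on a linear axis from 0, in fish, soy, lard and control livers. Points are livers, lines are means and open points are soy livers 1073 and 1159. The 4 fish livers are close together in most panels, while the soy livers spread widely, as in Fasn from 317 to 994 CPM.

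Genes of glycolysis, fructose use and glycogen were mostly at lower levels in fish livers as well. Of 21 tested, 17 had a negative fold change, 0 passed the threshold, and the median was -0.34, or -0.25 without soy livers 1073 and 1159. Khk, the fructose kinase, had 416, 547, 422 and 426 CPM in fish livers and 509, 1429, 750.4 and 1311 CPM in soy livers, and its fold change of -1.14 was -0.48 without soy livers 1073 and 1159. Tkfc, the triokinase of the same route, had 222, 294, 253 and 201 CPM in fish livers and 275, 602, 569 and 432 CPM in soy livers, with a log2 fold change of -0.95 and -0.80 without soy livers 1073 and 1159.

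In the urea cycle all 8 genes tested had a negative fold change, 0 passed the threshold, and the fish livers were all below the soy livers in 4 of them (50%, against 3.65% of all genes), Asl, Ass1, Slc25a15 and Otc. The median was -0.39, and -0.53 without soy livers 1073 and 1159. Asl, argininosuccinate lyase, had 384, 389, 347 and 395 CPM in fish livers and 539, 1210.2, 673 and 1042 CPM in soy livers. Fish livers held within 347 to 395 CPM, and the log2 fold change was -1.19 ± 0.23 (edgeR adjusted p = 0.071), or -0.68 without soy livers 1073 and 1159. Ass1, the step before it, had 1548, 1859, 2116 and 1290.1 CPM in fish livers and 2396, 3434, 3776 and 2714 CPM in soy livers, and its fold change of -0.85 ± 0.22 (edgeR adjusted p = 0.106) was -0.86 without soy livers 1073 and 1159. Only 45.05% of Ass1 reads were unique to it. Arg1, arginase, had 845 to 1174 CPM in fish livers and 1111 to 1952 CPM in soy livers.

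The list of gluconeogenesis and amino acid breakdown showed the same direction, with 27 of 29 genes negative, 0 past the threshold and 8 whose fish livers were all below the soy livers (27.6%, against 3.65% of all genes). Its median was -0.32, and -0.19 without soy livers 1073 and 1159. Cth, which makes cysteine from cystathionine, had 209.7, 266, 233 and 227 CPM in fish livers and 320.3, 336, 306 and 322 CPM in soy livers. Both groups were narrow, and the log2 fold change of -0.46 ± 0.09 (edgeR adjusted p = 0.0755) was -0.42 without soy livers 1073 and 1159. Got1, the cytosolic aspartate aminotransferase, had 250.3, 336, 271 and 257 CPM in fish livers and 386, 656, 521 and 529.6 CPM in soy livers, and control livers had 104 to 294 CPM. Fbp1, the fructose bisphosphatase of gluconeogenesis, had 881 to 953 CPM in fish livers and 1139 to 1798 CPM in soy livers, while the fold change of Pck1, which encodes its best known regulated enzyme, was -0.08. Beside these lists, the summed hepatocyte markers given above were also lower in fish livers, and their part in the result was not tested.

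Lipoprotein genes held Sort1 and Apoa4, described above, and a wider set of lower values. Of 32 tested, 1 passed higher and 1 lower, against 0.0704% and 0.0235% of all genes tested. Fish livers were all below soy livers in 9 (28.1%, against 3.65% of all genes) and above in 2 (6.25%, against 3.71%). The median was -0.25, and -0.13 without soy livers 1073 and 1159. Apoa5, which promotes the clearance of triglyceride by lipoprotein lipase, had 1399.8, 1389, 1385 and 1699.7 CPM in fish livers and 2038, 2556, 1917 and 3671 CPM in soy livers (log2 fold change -0.79 ± 0.18, edgeR adjusted p = 0.103). Apoc3, which slows that clearance, had 1036, 1116, 1081 and 1089 CPM in fish livers and 1192, 2895, 1479 and 2996 CPM in soy livers. Soy livers 1073 and 1159 were the highest in both, and without them the fold change of Apoc3 was -0.31 and that of Apoa5 -0.43.

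Tm6sf2, needed for the lipid loading of very low density lipoprotein, had 20.8, 30.4, 22.9 and 23.3 CPM in fish livers and 32.8, 50.5, 49.8 and 37.2 CPM in soy livers, with no overlap. It had a log2 fold change of -0.80 ± 0.18 (edgeR adjusted p = 0.103) that was -0.76 without soy livers 1073 and 1159. Lpl, lipoprotein lipase itself, had 28.2, 50.8, 42.7 and 37.9 CPM in fish livers and 15.3, 17.1, 11.0 and 29.5 CPM in soy livers, with overlap only at soy liver 1159. Lard and control livers, at 12.8 to 22.6 and 11.9 to 17.5 CPM, were all below the lowest fish liver. Its log2 fold change was 1.14 ± 0.27 (edgeR adjusted p = 0.106), and 1.59 without soy livers 1073 and 1159. It passed with library size alone as the scaling, where the median of all genes was itself raised to 0.20. Muscle also expresses Lpl, and skeletal muscle markers were high in fish liver 1123, the highest for Lpl. The part of these cells in the result was not tested. Angptl8, an insulin-induced inhibitor of that lipase, had 9.90, 13.4, 8.78 and 9.39 CPM in fish livers and 9.39, 23.7, 47.1 and 31.3 CPM in soy livers, and soy liver 1065 was inside the fish range. Vldlr, the receptor of very low density lipoprotein, had 22.4, 40.0, 25.6 and 23.0 CPM in fish livers and 17.7, 7.68, 19.1 and 7.27 CPM in soy livers, a log2 fold change of 1.10 and 0.59 without soy livers 1073 and 1159. Apob, the structural protein of these particles, and Apoa1, that of high-density lipoprotein, changed sign when those livers were left out (0.26 and -0.23 for Apob, -0.71 and 0.08 for Apoa1).

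Of 46 targets of PPARα and enzymes of fatty acid oxidation tested, 28 had a positive and 18 a negative fold change, 0 passed, and the median was 0.05, or 0.23 without soy livers 1073 and 1159. Without soy liver 1159 alone it was 0.26, and without soy liver 1073 alone 0.0075. Fish livers were all above soy livers in 3 (6.52%, against 3.71% of all genes), Cyp4a31, Cyp4a32 and Aldh3a2. Cyp4a31, a fatty acid omega-hydroxylase, had 68.9, 60.5, 66.3 and 63.6 CPM in fish livers and 37.5, 5.57, 17.8 and 40.2 CPM in soy livers. The fish livers were within 60.5 to 68.9 CPM and soy liver 1073 was far below the other soy livers (log2 fold change 1.36 ± 0.51). Cyp4a32 had 59.8 to 75.1 CPM in fish livers and 19.8 to 45.2 CPM in soy livers, and 76.8% of its reads were unique, since the family has near-identical members. Cyp4a10 and Cyp4a14, the most abundant members, overlapped between groups, with 1354 to 2089.8 CPM in fish livers and 395 to 1565 CPM in soy livers for Cyp4a10 and 2793 to 3753 CPM in fish livers and 1189 to 3335 CPM in soy livers for Cyp4a14.

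Ehhadh, an enzyme of peroxisomal oxidation, had 501, 644, 906 and 859 CPM in fish livers and 459.9, 403, 343 and 772 CPM in soy livers, with soy liver 1159 inside the fish range. Vnn1, a pantetheinase, had 130.3 to 214 CPM in fish livers and 53.9 to 133 CPM in soy livers. Cpt1a, which admits fatty acids to mitochondria, had 555 to 605 CPM in fish livers and 424 to 701 CPM in soy livers, and its fold change of 0.05 was -0.18 without soy livers 1073 and 1159. Fgf21, a hormone that PPARα induces in fasting, had 0.524, 0.819, 0.908 and 1.76 CPM in fish livers and 1.31, 2.06, 5.44 and 3.21 CPM in soy livers, and control livers had 4.33 to 6.08 CPM.

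Among genes of drug metabolism, 3 of 40 had all fish livers above all soy livers (7.5%, against 3.71% of all genes). In 2 they were all below (5.0%, against 3.65%). The 1 that passed was Ugt1a6a, against 0.0938% of all genes tested. Cyp3a11, the main inducible mouse Cyp3a enzyme, had 2125, 2181, 1983 and 2587 CPM in fish livers and 1396, 1309, 822 and 1668 CPM in soy livers (log2 fold change 0.77 ± 0.20, edgeR adjusted p = 0.106). Every fish liver was also above every lard and control liver, at 736 to 1155 and 913 to 1289.7 CPM. The fold change was 1.0 without soy livers 1073 and 1159. Cyp3a11 passed with library size alone as the scaling, where the median of all genes was itself raised to 0.20. Cyp2c55 had 1.16, 1.97, 2.91 and 1.71 CPM in fish livers and 0.387, 1.15, 0.373 and 0.998 CPM in soy livers, where soy livers 1073 and 1159 lay close to the lowest fish liver and soy livers 1065 and 1141 well below. Aox3, an aldehyde oxidase, had 305 to 502 CPM in fish livers and 156 to 279 CPM in soy livers.

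In the bile acid list, 1 of 25 genes passed, Abcc3, against 0.0938% of all genes tested. Slc10a1, the sodium-dependent uptake carrier for bile acids, had 818, 859.6, 723 and 993 CPM in fish livers and 1023, 1057, 1136 and 1183 CPM in soy livers, all fish livers below all soy livers by a small margin (log2 fold change -0.37 ± 0.13). Cyp7a1, the rate-limiting enzyme of bile acid synthesis, had 175 to 417 CPM in fish livers and 137 to 354 CPM in soy livers and overlapped. Slc51b, a basolateral bile acid exporter subunit, was at 0.104 to 0.363 CPM in fish livers and 0.242 to 2.30 CPM in soy livers, its 2 highest values being soy livers 1073 and 1159.

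Genes with a sex bias in mouse liver had wide spreads. The 26 male-biased genes tested had a median of 0.70 and the 27 female-biased genes -0.84, or 0.91 and -0.61 without soy livers 1073 and 1159, and 0 genes of either list passed. Single livers moved these medians, the male-biased one to 0.24 without fish liver 1067 and the female-biased one to -0.54 without soy liver 1159. Of the female-biased genes, 6 had all fish livers below all soy livers (22.2%, against 3.65% of all genes) and 1 above (3.7%, against 3.71%). Cyp17a1, a steroid hydroxylase, had 3.20, 9.28, 5.09 and 17.2 CPM in fish livers and 26.7, 43.9, 89.0 and 37.2 CPM in soy livers (log2 fold change -2.49 ± 0.64, edgeR adjusted p = 0.106). Cyp39a1, an oxysterol hydroxylase, had 20.6, 26.7, 20.2 and 24.1 CPM in fish livers and 56.5, 37.3, 120.5 and 85.4 CPM in soy livers. Its groups did not overlap, and its fold change of -1.71 ± 0.35 (edgeR adjusted p = 0.0755) was -1.95 without those livers.

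On the male-biased side, Susd4, a regulator of complement, had 25.9, 17.3, 17.0 and 20.0 CPM in fish livers and 7.21, 9.62, 7.83 and 8.92 CPM in soy livers (log2 fold change 1.26 ± 0.34, edgeR adjusted p = 0.106). It was the 1 gene of that list whose groups did not overlap (3.85% of the list, against 3.71% of all genes with fish livers above). Cyp4a12a had 27.1, 5.02, 21.7 and 46.3 CPM in fish livers and 6.29, 7.56, 2.98 and 6.28 CPM in soy livers, with fish liver 1123 among the soy livers. Hsd3b5 had 63.2, 0.765, 1.15 and 8.61 CPM in fish livers and 2.13, 4.48, 0.746 and 2.21 CPM in soy livers, and its positive fold change of 2.92 ± 1.29 came mostly from fish liver 1067.

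Heat shock chaperones all had negative fold changes, 18 of 18, with 0 past the threshold and 3 whose fish livers were all below the soy livers (16.7%, against 3.65% of all genes), Bag3, Stip1 and Hsp90ab1. The list median was -0.46, and -0.45 without soy livers 1073 and 1159. Bag3, a co-chaperone of Hsp70, had 19.6, 21.2, 21.7 and 19.1 CPM in fish livers and 37.9, 27.3, 35.6 and 28.3 CPM in soy livers (log2 fold change -0.66 ± 0.19, and -0.85 without those livers). Hspa1b, the inducible Hsp70, had 15.9, 7.86, 9.14 and 19.9 CPM in fish livers and 44.3, 6.84, 27.8 and 29.5 CPM in soy livers, where soy liver 1073 was the lowest of the 8 and the other 3 soy livers the highest. In the endoplasmic reticulum stress list, with 28 genes tested, 0 passed the threshold, and 21 had a negative and 7 a positive fold change. Its median was -0.22, and -0.17 without soy livers 1073 and 1159. Fish livers were all below soy livers in 6 (21.4%, against 3.65% of all genes). Among them was Hspa5, which encodes BiP, at 335, 344, 288 and 355 CPM in fish livers and 388, 452, 541 and 396 CPM in soy livers. Creld2, another chaperone-linked protein of that compartment, had 12.4 to 15.5 CPM in fish livers and 19.1 to 31.4 CPM in soy livers.

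Collagen and matrix genes lay on the other side. Of 30 tested, 26 had a positive fold change and 0 passed. Fish livers were all above soy livers in 6 (20.0%, against 3.71% of all genes). The list median of 0.47 was 0.22 without soy livers 1073 and 1159. Col3a1, the fibrillar collagen III chain, had 27.0, 30.7, 27.3 and 27.2 CPM in fish livers and 17.6, 18.5, 15.1 and 10.2 CPM in soy livers (log2 fold change 0.86 ± 0.17, edgeR adjusted p = 0.0729, and 0.77 without those livers). It passed with library size alone as the scaling, where the median of all genes was itself raised to 0.20. Col1a1, a chain of collagen I, had 3.94 to 6.42 CPM in fish livers and 1.57 to 3.48 CPM in soy livers, and Col6a3 had 11.0 to 11.96 CPM in fish livers and 3.78 to 9.62 CPM in soy livers. Lard and control livers held 18.3 to 28.6 and 21.8 to 27.3 CPM of Col3a1, which overlap the fish livers. Markers of stellate cells, the collagen-making cells of liver, summed to 381 to 439 CPM in fish livers and 359 to 418 CPM in soy livers, and their part in the result was not tested.

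**Figure D3:**
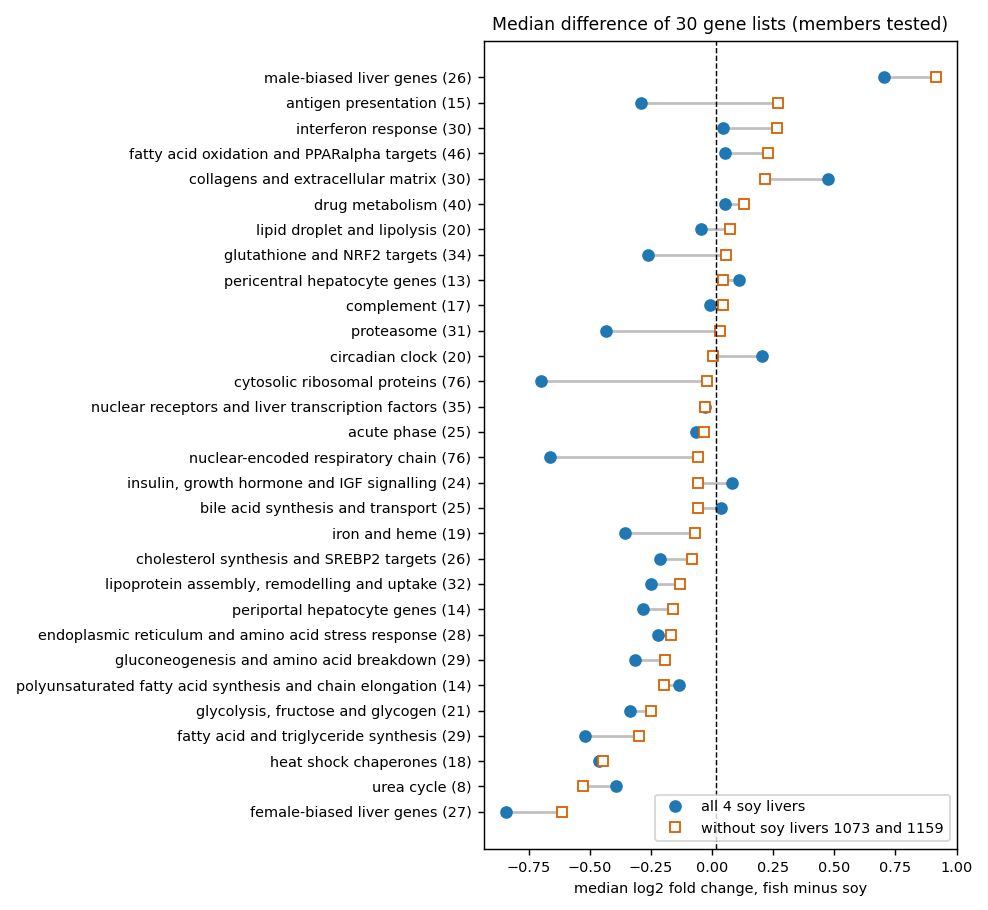
For 30 gene lists, with the number of members tested in brackets, the points give the median log2 fold change of fish minus soy livers with all 4 soy livers (filled circles) and without soy livers 1073 and 1159 (open squares). The dashed line is the median of all genes tested, 0.02. The ribosomal list lies at -0.70 with all soy livers and at -0.02 without the pair, and the heat shock list at -0.46 and -0.45.

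Several large lists lay below 0 with all 4 soy livers and near or above 0 without soy livers 1073 and 1159. All 76 ribosomal protein genes and all 76 nuclear-encoded respiratory chain genes tested had negative fold changes, with medians of -0.70 and -0.66 and 0 genes past the threshold. Without those livers the medians were -0.02 and -0.06. The proteasome list went to 0.03, against -0.43 with them, and the glutathione and NRF2 list to 0.06, against -0.26. Antigen presentation genes went to 0.27, against -0.29. Psmb8, an immunoproteasome subunit, shows the pattern, with 21.9, 21.7, 16.8 and 22.3 CPM in fish livers and 21.7, 76.9, 15.0 and 38.5 CPM in soy livers. The plot of all genes shows the same shift beside the 12 genes past the threshold. Each of the 12 kept its sign, which could hardly change because their fish and soy livers do not overlap.

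**Figure D4:**
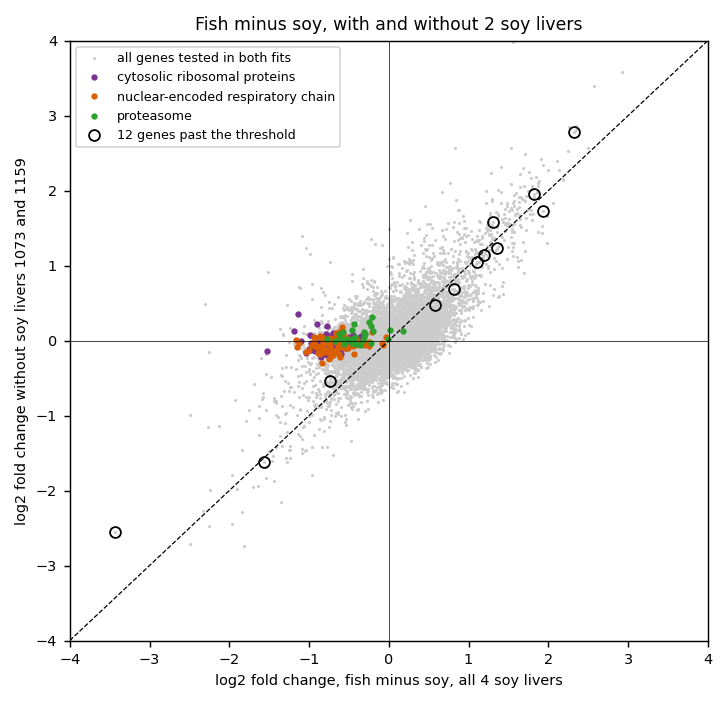
Each grey point is 1 of 12782 genes tested in both fits, by its log2 fold change of fish minus soy livers with all soy livers (horizontal axis) and without soy livers 1073 and 1159 (vertical axis). Coloured points are 3 gene lists, open circles the 12 genes past the threshold, the dashed line marks equal values, and 6 genes outside the axes are not drawn. Ribosomal and respiratory chain genes lie left of 0 and close to 0 in height. Each of the 12 circles lies on the same side of 0 in both fits, where groups that do not overlap leave little room for another outcome.

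The remaining lists had medians between -0.36 and 0.21 with all 4 soy livers, and 0 genes past the threshold in any of them. Iron genes were at -0.36 (-0.07 without soy livers 1073 and 1159), periportal genes at -0.28 (-0.16 without them), cholesterol synthesis at -0.21 (-0.080), acute phase at -0.06 (-0.032), lipid droplet and lipolysis at -0.05 (0.073), nuclear receptors and liver transcription factors at -0.03 (-0.030) and complement at -0.0093 (0.043). Interferon response was at 0.05 (0.27 without them), insulin and growth hormone signalling at 0.08 (-0.058), pericentral genes at 0.11 (0.046) and the circadian clock at 0.21 (0.0060). The cholesterol median was -0.021 without soy liver 1073 alone and -0.48 without fish liver 1125. Hamp, the iron hormone hepcidin, had 482, 710.2, 387 and 483 CPM in fish livers and 639, 1860.3, 1385 and 1218 CPM in soy livers. Serum amyloid P, encoded by Apcs, had 35.6, 79.2, 80.8 and 76.99 CPM in fish livers and 94.0, 123, 123 and 159 CPM in soy livers, with fish liver 1067 well below the rest.

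Over all genes, list members included, 694 genes of at least 5 CPM had groups that did not overlap. Over genes tested at any level, 3.71% lay higher and 3.65% lower in this way. A minimum of 5 CPM on the mean of all 15 livers kept 9207 genes. Of the 694, 305 kept at least 2/3 of their fold change without soy livers 1073 and 1159, 129 higher and 176 lower. Their sign could hardly change, since the groups did not overlap. Tlr5, the receptor of flagellin, was not among the 305, with 17.2, 18.7, 20.3 and 15.5 CPM in fish livers and 10.5, 3.39, 6.49 and 2.64 CPM in soy livers (log2 fold change 1.62 ± 0.34, edgeR adjusted p = 0.084, and 1.06 without those livers). Of the 129 higher genes, Serpinb1a, an inhibitor of neutrophil proteases, had 14.0, 19.3, 17.9 and 14.7 CPM in fish livers and 7.31, 6.05, 2.01 and 7.203 CPM in soy livers (log2 fold change 1.53, and 1.76 without those livers). Clstn3, a calsyntenin, had 10.1, 13.1, 18.3 and 17.6 CPM in fish livers and 6.44, 8.11, 3.95 and 8.49 CPM in soy livers, and control livers had 16.8 to 23.6 CPM. Lower in fish livers but also outside the 305, Serpina12, the insulin-sensitising serpin vaspin, had 13.5, 11.6, 9.57 and 20.3 CPM in fish livers and 20.7, 83.1, 31.7 and 49.1 CPM in soy livers, with a log2 fold change of -1.75 ± 0.34 (edgeR adjusted p = 0.0729) and -0.92 without those livers. Rnd2, a small GTPase and likewise outside the 305, had 4.89, 8.14, 6.96 and 7.32 CPM in fish livers and 8.57, 22.9, 16.9 and 21.3 CPM in soy livers (log2 fold change -1.34, and -0.88 without those livers). Of the 176 lower genes, Hsd11b1, which regenerates active glucocorticoid, had 407, 455, 430.3 and 503 CPM in fish livers and 655, 617, 691 and 762 CPM in soy livers, with a small and steady difference of -0.60 ± 0.11 (edgeR adjusted p = 0.071, and -0.58 without those livers), though only 39% of its reads were unique.

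In the authors' deposited table of p-values from RPKM, which were not scaled further between libraries, 1802 of 13704 genes had p under 0.05, 1601 higher and 201 lower in fish livers, and all 12 genes above were among them. The median difference in that table over 12747 of the genes tested was 0.20 on the log2 scale, in favour of fish livers. That table differs from the edgeR fit above in its test, its genes and its scaling together.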

How the data were processed

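RNA-seq of liver and hindlimb muscle gave 29 libraries, of which all 15 livers entered the fit. The deposited table gives the authors' counts of total exon reads per gene, with unique exon reads and junction reads beside them, and RPKM values, per the file headers. The authors' deposited table also holds p-values and differences on a log10 scale. The submitters' processing notes name GRCm38 and FastQC, while no source used here gives the aligner or whether counting was stranded. Of 38124 gene IDs, 36345 were matched to a symbol.

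From the counts, genes were kept by edgeR's filterByExpr with a minimum count of 10, scaled by TMM and tested with the quasi-likelihood test of edgeR 4.0.16 (R 4.3.3), with the 4 diets in one fit and Benjamini-Hochberg adjustment over all genes tested at 0.05. Totals were 11315231 to 21278699 exon reads per liver. The counts are of reads, so their number limits precision only as counting error. DESeq2 1.42.0, limma-voom (limma 3.58.1) and the other alternatives are given below. The test was checked on simulated counts drawn independently for each gene and library. They held no shift shared by many genes in some livers, so the check does not cover such a shift. Replicate pairs differed beyond sampling noise. Differences are fish minus soy, and CPM is the TMM-scaled exon read count relative to a fixed library size.

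Named genes were all genes past the threshold, the 10 largest non-overlapping differences in each direction at a mean of at least 5 CPM, up to 3 genes of smallest p per list, and up to 10 non-overlapping genes of at least 5 CPM that kept 2/3 of their fold change without soy livers 1073 and 1159. Some genes that this rule names are not reported here. Further list members were added as examples after their values were seen. The members and all gene lists were chosen with earlier results of these data known.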

Additional observations from a re-analysis of the deposited data

Results flagged for a closer look

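In 17 of 334 groups of 4 livers examined, 1 liver lay far from the other 3 (Dixon's test, which flags about 1 group in 20 by chance). All 17 were fish livers. The cause was not tested.

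Fish liver 1123 was the highest for Khk, at 547 CPM against 416 to 426 CPM in the other fish livers, and for Col3a1, at 30.7 CPM against 27.0 to 27.3 CPM, and the lowest for Igfbp4, at 1069 CPM against 1230 to 1239 CPM. Its skeletal muscle markers summed to 3052 CPM, against 203 to 367 CPM in the other fish livers.

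Fish liver 1124 was the highest for Sema5b, at 17.3 CPM against 6.59 to 8.41 CPM, and the lowest for Psmb8, at 16.8 CPM against 21.7 to 22.3 CPM. It also had the highest summed markers of Kupffer cells, at 1010 CPM against 494 to 576 CPM, and of neutrophils, at 11.7 CPM against 3.44 to 4.19 CPM, and the lowest of cholangiocytes, at 56.6 CPM against 79.2 to 83.2 CPM.

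Fish liver 1067 was the lowest for Grk3, at 5.12 CPM against 8.85 to 9.49 CPM, and for Apcs, at 35.6 CPM against 76.99 to 80.8 CPM. It was the highest for Dnajb11, at 43.9 CPM against 36.6 to 37.6 CPM, for Hsd3b5, at 63.2 CPM against 0.765 to 8.61 CPM, and for pancreatic acinar markers, at 8.27 CPM against 5.55 to 5.95 CPM, where 6 of the 10 markers were at 0 in all 8 livers.

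Fish liver 1125 was the highest for Thrsp, at 245 CPM against 143 to 158 CPM, for Apoa5, at 1699.7 CPM against 1385 to 1399.9 CPM, and for Fads2, at 714 CPM against 298 to 327 CPM. In all 3 its value lay nearer the soy livers than the other fish livers did.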

How the results depend on the processing

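The count of genes past the threshold moved with most choices. The 12 genes kept their sign in every fit that tested them, but their fish and soy livers do not overlap. Leaving out livers could therefore hardly change the sign, so this is no measure of stability. The 12 calls, 9 higher and 3 lower, were 813 with DESeq2's Wald test (182 and 631), 0 in either direction with limma-voom and library weights (1908 genes at an unadjusted p under 0.05), 1 with fish and soy livers alone (1 and 0), 30 with library size alone as the scaling (28 higher), a choice made after seeing the data, and 0 without soy livers 1073 and 1159 in both the 15-liver and the fish and soy fits (1183 and 1206 genes at an unadjusted p). Unique reads gave 8 calls, 1 of them lower. Leaving out 1 liver gave 0 to 2092 calls, 0 to 724 higher and 0 to 1368 lower. Other fits gave 8 to 12 calls.

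With the library number as a replicate block, 4 genes passed, 3 higher and 1 lower. The labels do not say what the numbers mark, and whether they pair the mice was not tested. For each gene, the mean log2 CPM of the diet was subtracted from each liver. These deviations, not the levels themselves, correlated at 0.16, 0.14, -0.15 and 0.08 between fish and soy livers of the same number. By the same deviations, 3 of 4 fish livers correlated best with the soy liver of their own number.

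Several genes not past the threshold changed sign without soy livers 1073 and 1159, in the 15-liver and the fish and soy fits, where Ifi27 was at 0.034 and 0.033, Bst2 at 0.18 and 0.18, Psmb8 at 0.16 and 0.16, Psmb4 at 0.024 and 0.022, Srebf1 at 0.089 and 0.088, Mlxipl at -0.060 and -0.061, Apoa1 at 0.075 and 0.074, Apob at -0.23 and -0.24, and Cpt1a at -0.18 and -0.19. Srebf1 was also positive with limma-voom (0.061), library weights (0.19), a 5 CPM minimum (0.0050), the block (0.026) and library size alone (0.18). Leaving out 1 liver gave -0.22 to 0.31 for Srebf1 and -0.065 to 0.18 for Cpt1a. The cause was not tested. Depth limits Gm5424, Gpnmb and Slc35f2 most, at under 4 CPM in fish and soy livers.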
